A study of Mus musculus with 4 samples.

Results

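The genes described here are 8 antioxidant enzymes and 2 membrane subunits of the NADPH oxidase, chosen by name from a table of 16467 genes for WT and cKO platelets and a table of 16180 genes for Young and Old platelets. All 10 were listed in both tables and had at least 100 reads in the larger library of every comparison. Platelets, cell fragments without a nucleus that start clotting, were taken from male mice. WT mice and littermates labelled HuR cKO were 3 months old, as were the Young mice, and the Old mice were 24 months old. The label cKO stands for a conditional knockout in platelets of HuR, the RNA-binding protein encoded by Elavl1. Young and Old mice were wild-type, and the sources used here do not name the promoter that drives the deletion. Each of the 4 libraries held the platelets of 7 mice, so that every group is 1 pooled library and no difference has a replicate check.

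Superoxide, formed by NADPH oxidase at membranes and as a by-product of mitochondrial respiration, is turned into hydrogen peroxide by the superoxide dismutases. Catalase, the glutathione peroxidases and the peroxiredoxins then remove the peroxide. The glutathione peroxidases and the peroxiredoxins do so at the cost of glutathione, thioredoxin and NADPH. In platelets, peroxide and oxidised lipids are known to modulate activation, and phagocytes use the same oxidase at a much higher rate for their oxidative burst. Red cells are known for a high content of catalase, of peroxiredoxin 2 (Prdx2) and of glutathione peroxidase 1 (Gpx1).

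The read totals, recovered from the deposited scaled values, were 18145612 in Young, 18472149 in Old, 17978384 in WT and 17702341 in cKO. A ratio is given as reads over library sizes scaled by the trimmed mean of M-values (TMM), with an exact 95% interval that covers counting error only. "Rose" and "fell" are used for genes with 100 reads or more in the larger library whose interval stays beyond 2-fold. Elavl1 itself had 876 reads in WT against 1481 in the library labelled cKO, a ratio of 1.66 (1.53 to 1.81). These reads do not bear out the genotype label. Against Young the library labelled cKO was at 2.62 (2.38 to 2.88), past the 2-fold bound. WT itself, however, was at 1.54 of Young (1.39 to 1.71; 876 and 621 reads). Reads summed over a whole gene also cannot show whether part of it was deleted, so they do not settle the label. Directions are therefore given for the library as labelled and say nothing of a loss of HuR. The 20 platelet and megakaryocyte markers all had reads in every library, though Gp1bb had only 9 in WT and 1 in the library labelled cKO. Together the 20 held between 6.29% (cKO) and 7.77% (Old) of the reads. Markers of red cells, neutrophils, monocytes, B cells and T cells were also present. A larger share of such cells and more RNA per cell cannot be told apart in pooled RNA.

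Together the 10 genes held 0.587% of all reads in Old, 0.623% in Young, 0.685% in WT and 0.801% in the library labelled cKO. Levels between genes are given as RPKM, which are TMM-scaled reads per 1000000 divided by the gene length in kilobases, with exact Poisson intervals. The length is that of the deposited tables and counts every annotated exon, so a gene with long, rarely used exons is understated. In every library 4 of the genes were at 238 RPKM or more and the other 6 at 114 or less.

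Gpx4, the selenium-containing peroxidase that reduces lipid peroxides in membranes, had the highest level of the 10 in all 4 libraries, at 752 RPKM in Young, 1108 in Old, 882 in WT and 906 in the library labelled cKO. Among protein-coding genes it ranked between 49 (Old) and 67 (Young). Prdx6, a peroxiredoxin that also acts on phospholipids, was at 489 RPKM in Young, 505 in Old, 665 in WT and 714 in the library labelled cKO. Cat (catalase) followed Prdx6 at 607, 663 and 448 RPKM in WT, the library labelled cKO and Old, and stood above it in Young, at 554. Gpx1, the abundant cytosolic glutathione peroxidase, ranked below these 3 in each library, between 238 RPKM in Old and 563 in the library labelled cKO.

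Cyba, the smaller membrane subunit of the oxidase, led the lower group in every library, at 50.1 RPKM in Young, 114 in Old, 43.3 in WT and 70.7 in the library labelled cKO. Sod1, the cytosolic copper-zinc dismutase, lay between 22.6 and 37.5 RPKM. Txn1 (thioredoxin, the small protein that recycles peroxiredoxins) was lowest in WT (interval 18.1 to 22.2) and highest in Old, at 27.2. Prdx2, the abundant peroxiredoxin of red cells, lay between 11.0 in WT and 34.3 in the library labelled cKO. Cybb, the catalytic subunit of the phagocyte oxidase, lay at 1.72 to 3.54 RPKM, and Sod2, the mitochondrial manganese dismutase, was the lowest everywhere, at 1.18 to 1.56. Neighbours in this order had intervals that overlapped only in Young, where Txn1 (19.7 to 23.8 RPKM) could not be separated from Prdx2 (20.2 to 22.6), nor Cybb (1.48 to 1.98) from Sod2 (1.39 to 1.74).

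**Figure D1:**
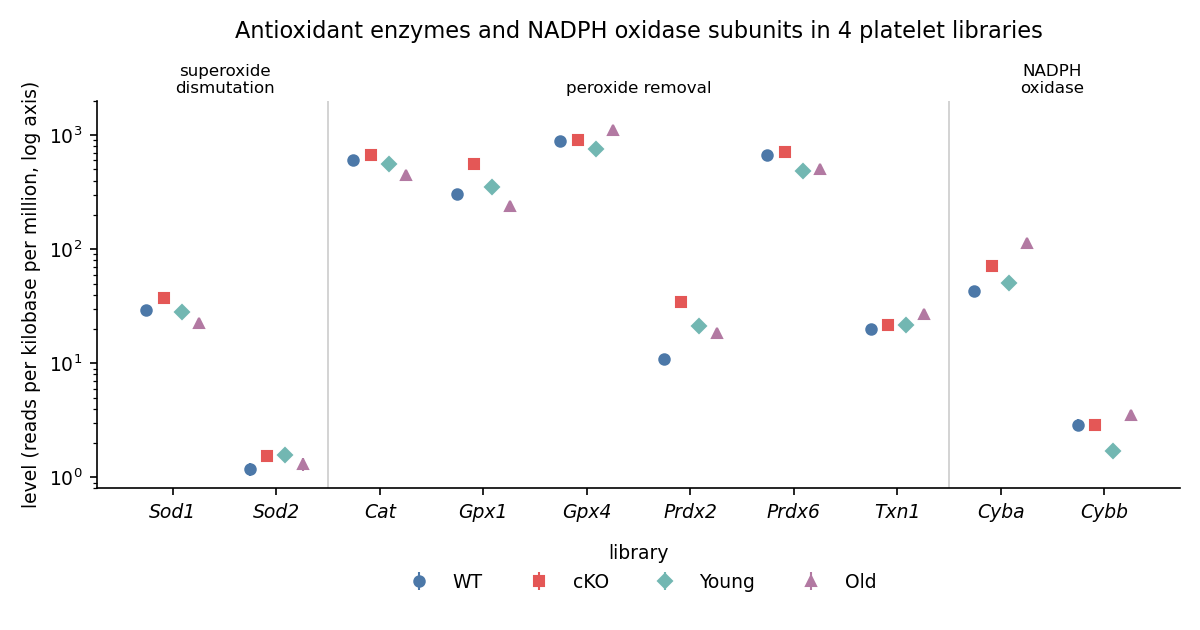
Level of each gene (RPKM, log axis) in the WT, cKO, Young and Old libraries, 1 point per library, with exact 95% Poisson intervals that are mostly smaller than the points. Gpx4, Prdx6, Cat and Gpx1 lie between 238 and 1108, and Cybb and Sod2 between 1.18 and 3.54.

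The spread over the 4 libraries differed between the genes. The highest level was 1.32 to 1.66 times the lowest for Sod2, Txn1, Prdx6, Gpx4, Cat and Sod1, against a median of 1.54 over 1918 protein-coding genes with at least 500 reads in every library. It was 2.06 times for Cybb, 2.36 for Gpx1, 2.64 for Cyba and 3.11 for Prdx2, and 97.1% of the 1918 genes had a smaller spread than Prdx2. Sod2, Txn1 and Cybb did not reach 500 reads in every library and are not among the 1918. Their spread thus holds more counting error.

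The library labelled cKO was first compared with WT, its littermate library. Prdx2 (chromosome 8, 84969587 to 84974834 on mm10, plus strand) was the member that rose. It had 1255 reads in Young, 999 in Old, 592 in WT and 1872 in the library labelled cKO. WT was thus the lowest and the library labelled cKO the highest of the 4. Over WT the library labelled cKO had a ratio of 3.11 (2.83 to 3.41). In the authors' deposited table its log2 fold change was 1.64, with p = 0.000122 and adjusted p = 0.00906, from a test of 2 single libraries that the sources used here do not name. Against Young, the other library of 3-month-old mice, the ratio was 1.64 (1.52 to 1.76) and did not pass, while WT over Young was 0.515 (0.467 to 0.569). Exons of Prdx2 overlap those of Rnaseh2a by 177 bases at its start (5.80% of its exon length) and those of Junb by 173 bases at its end (5.67%), both on the other strand. Rnaseh2a had 33 reads in WT and 28 in the library labelled cKO, and Junb 139 and 169.

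So 1 of 10 members rose and 0 fell in the library labelled cKO against WT, where 2.52% of the 6273 genes with at least 100 reads rose and 1.71% fell, 4.22% in all. At a bound of 1.5-fold Gpx1 passed too, which made 2 of 10, against 13.5% of genes. A count of 1 describes Prdx2 and sets the 10 genes as a group apart from no others. Of the 10, 9 had a ratio above 1. Their median log2 ratio was 0.23, against -0.01 over the 6273 genes.

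Gpx1 (chromosome 9, 108338903 to 108340343) had 9659 reads in Young, 6036 in Old, 7743 in WT and 14529 in the library labelled cKO. The library labelled cKO was the highest, with a ratio to WT of 1.84 (1.79 to 1.90) and to Young of 1.65 (1.61 to 1.69), beyond counting error but short of the 2-fold bound. Cyba (chromosome 8, 122424776 to 122432930) had 793 and 1316 reads in WT and the library labelled cKO, a ratio of 1.63 (1.49 to 1.78). Sod1 (2060 and 2663 reads) had a ratio of 1.27 (1.2 to 1.35), and Sod2 (208 and 276 reads) one of 1.30 (1.08 to 1.57).

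The 3 most abundant genes lay close to WT. The ratio was 1.03 (1.01 to 1.04) for Gpx4, with 26778 and 27965 reads, 1.07 (1.06 to 1.08) for Prdx6, with 56286 and 61424 reads, and 1.09 (1.07 to 1.11) for Cat, with 27944 and 31017 reads. These intervals leave out 1, but WT over Young lay as far from 1 or farther, at 1.17 (1.15 to 1.19), 1.36 (1.34 to 1.38) and 1.10 (1.08 to 1.12) for the same genes. No difference was detectable at this depth for Txn1, at 1.08 (0.932 to 1.24; 371 and 406 reads), or for Cybb, at 0.986 (0.836 to 1.16; 296 and 297 reads).

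**Figure D2:**
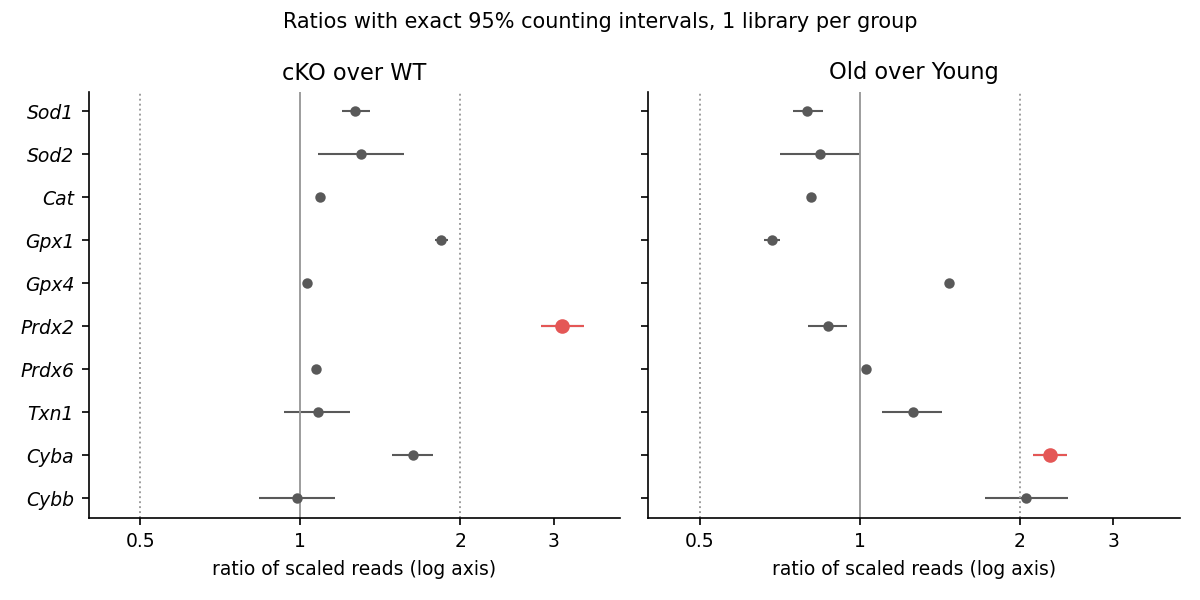
Ratio of scaled reads (log axis) of the library labelled cKO to WT (left) and of Old to Young (right) for each gene, with exact 95% counting intervals, from 1 library per group. Solid lines mark a ratio of 1 and dotted lines 2-fold. Prdx2 at 3.11 on the left and Cyba at 2.28 on the right, in red, are the members that passed.

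Red-cell markers, like Prdx2, were mostly higher in the library labelled cKO than in WT. Of 24 listed erythroid markers, 17 had at least 100 reads in WT or the library labelled cKO, and 13 of them rose, 1 fell and 3 did neither. Those that rose included Slc4a1 and Alas2, and Hba-a2, which has a near-identical copy, was the 1 that fell. In reads per 1000000 (RPM), the summed level was 21184 in Young, 12692 in Old, 9020 in WT and 17097 in the library labelled cKO, most of it from the globin genes. Ahsp, a haemoglobin chaperone on the list, was not listed in either table. Without the 4 globin genes, a subset chosen after the values were seen, the sums were 2108 in Young, 1746 in Old, 1008 in WT and 2891 in the library labelled cKO, the same order of libraries as for Prdx2. Prdx2 had 33.4 reads per 1000 reads of those non-globin markers in WT (30.7 to 36.2) and 36.2 in the library labelled cKO (34.5 to 37.9), with 30.9 in Young (29.2 to 32.7) and 32.6 in Old (30.5 to 34.7). The intervals of WT and the library labelled cKO overlapped, and that of the library labelled cKO lay above that of Young. Per 1000 reads of the whole erythroid list, globins included, Prdx2 was at 3.08 in Young, 4.48 in Old, 3.73 in WT and 6.12 in the library labelled cKO, and so kept no such proportion. The part of these cells in the Prdx2 ratio was not tested.

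Which gene kept its proportion to the erythroid markers between WT and the library labelled cKO depended on whether globins were counted. Per 1000 reads of the whole list, Gpx1 had 48.8 in WT (47.7 to 49.9) and 47.5 in the library labelled cKO (46.7 to 48.3), which overlap, while Prdx2 had 3.73 (3.43 to 4.04) and 6.12 (5.84 to 6.40). Gpx1 was at 23.7 in Young and 27.1 in Old on that scale, and Cat at 68.3 in Young, 92.3 in Old, 176 in WT and 101 in the library labelled cKO. Per 1000 non-globin erythroid reads, Gpx1 had 238 in Young, 197 in Old, 436 in WT and 281 in the library labelled cKO. Cat had 686 in Young, 671 in Old, 1574 in WT and 599 in the library labelled cKO, so that WT stood apart.

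**Figure D3:**
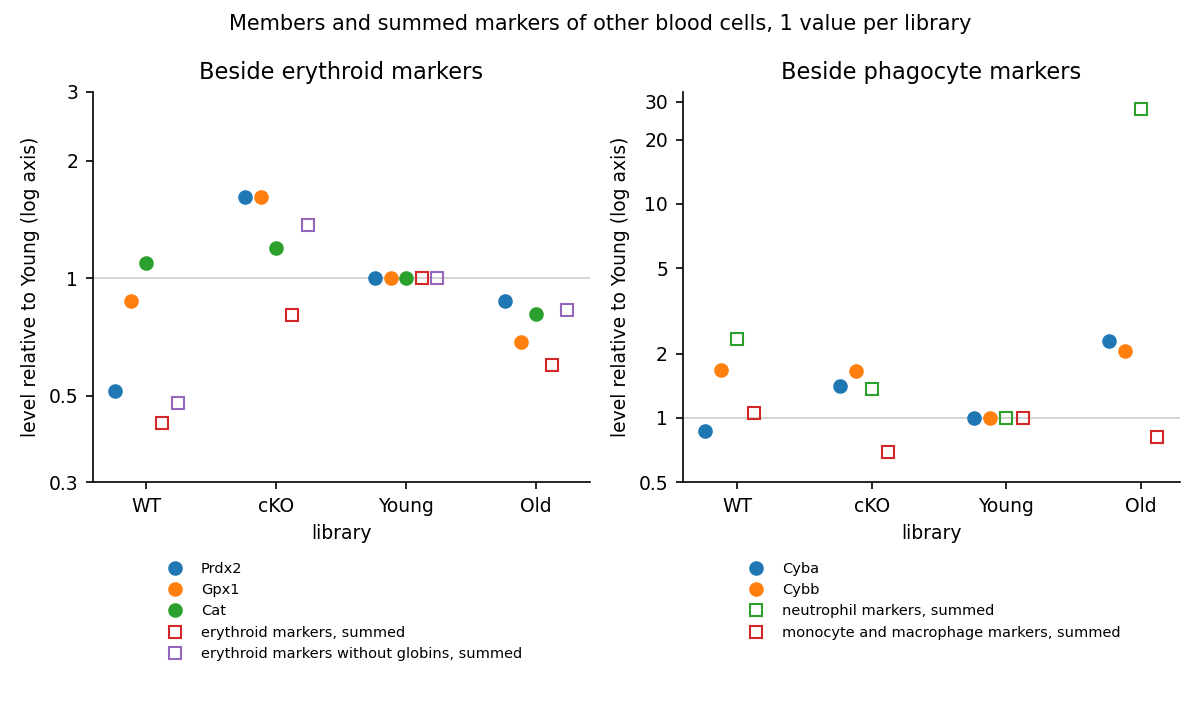
Level of single genes (filled circles) and summed level of marker lists (open squares) in each library relative to Young (log axis), 1 value per library. On the left, Prdx2 and the erythroid markers without globins are lowest in WT and highest in the library labelled cKO. On the right, the summed neutrophil markers are far higher in Old than in the other libraries, while Cyba and Cybb are about 2-fold above Young there.

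Old platelets were then compared with Young ones. Here the oxidase subunits were higher in Old and no antioxidant enzyme passed the rule. Cyba had 1001 reads in Young, 2086 in Old, 793 in WT and 1316 in the library labelled cKO, Old being the highest. It rose 2.28-fold over Young (2.12 to 2.46), and 2.64-fold over WT (2.43 to 2.86). With library sizes taken as plain read totals in place of TMM, the ratio to Young was 2.05 (1.90 to 2.21) and no longer passed, and that to WT was 2.56 (2.36 to 2.78). In the authors' deposited table the log2 fold change over Young was 1.19, with p = 0.00454 and adjusted p = 0.0400. Gm20388, a gene model on the opposite strand, overlaps Cyba but shares 0 bases of annotated exon with it.

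Cybb (X chromosome, 9435252 to 9487771) had 192 reads in Young and 361 in Old, a ratio of 2.06 (1.72 to 2.47) that did not pass. WT and the library labelled cKO, with 296 and 297 reads, lay between them. Against WT the ratio in Old was 1.22 (1.05 to 1.43), and WT itself was 1.68 times Young (1.40 to 2.03). For Cybb, then, Young stood below the other 3 libraries, whereas for Cyba Old stood above them.

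In all, 1 of 10 members rose and 0 fell in Old against Young, where 4.26% of 6519 genes rose and 4.30% fell, 8.56% in all. At a bound of 1.5-fold Cybb passed too, so 2 of 10 against 23.3% of genes. The members were spread evenly about 1, with 5 ratios above it and a median log2 ratio of -0.08, against -0.06 over the 6519 genes. Against WT, 1 of 10 rose, again Cyba, where 4.54% of 6328 genes rose and 4.22% fell, 8.75% in all. At 1.5-fold Prdx2 joined it, against 25.3% of genes. These comparisons share the Old library.

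Among the enzymes, Gpx4 (chromosome 10, 80047166 to 80056439) and Gpx1 had ratios on opposite sides of 1. Gpx4 had 24935 reads in Young and 33548 in Old, a ratio of 1.47 (1.45 to 1.5), and Old was the highest of the 4 libraries. Its processed pseudogene Gpx4-ps2, which shares sequence with it, had 4636 and 5778 reads, and with these added the ratio was 1.46 (1.43 to 1.48). Gpx1 was 1.46-fold lower in Old than in Young (1.42 to 1.51) and 1.28-fold lower than in WT (1.24 to 1.32), the lowest of the 4. Neither gene passed the 2-fold bound.

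Cat had 27838 reads in Young and 20584 in Old, a ratio of 0.810 (0.795 to 0.824), and of 0.738 (0.725 to 0.752) against WT. Sod1 had 2162 and 1576 reads, 0.798 (0.748 to 0.852) of Young and 0.767 (0.717 to 0.819) of WT. For both genes Old was the lowest library, and the interval lay below 1 against either younger wild-type library. Prdx2 was at 0.872 (0.801 to 0.948) of Young but 1.69 (1.53 to 1.88) of WT, so its direction depended on the comparator. Prdx6, with 45227 and 42598 reads, was at 1.03 (1.02 to 1.05) of Young, at 0.758 (0.749 to 0.768) of WT, and below 1 against Young (0.913 to 0.938) when library sizes were plain read totals. Txn1 had 438 and 503 reads, a ratio of 1.26 (1.10 to 1.43), and 1.36 (1.19 to 1.56) against WT. For Sod2, with 300 and 231 reads, the ratio of 0.843 (0.707 to 1.00) could not be told from 1 by counting error, nor could that of 1.11 (0.919 to 1.35) against WT. With plain read totals the ratio to Young was 0.756 (0.634 to 0.901) for Sod2, which leaves out 1, and 1.13 (0.99 to 1.29) for Txn1, which does not.

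Neutrophil markers, like the oxidase subunits, were higher in Old than in Young. Of 20 on the list, 18 were in the table of Old and Young, and 12 had at least 100 reads in the larger library. These 12 rose in Old, but the read minimum lets in markers through Old alone, so that count is partly fixed by it. The whole list had 629 reads in Young and 15942 in Old. The list summed to 32.7 RPM in Young, 907 in Old, 76.4 in WT and 44.7 in the library labelled cKO, and S100a9 (a calcium-binding protein of neutrophils) alone went from 179 to 6562 reads. Elane and Fcnb were not listed in either table. Ltf, Camp, Ly6g and Mpo were at 0 in Young and were not listed in the table of WT and cKO. For each neutrophil marker read there were 1.59 Cyba reads in Young (1.44 to 1.76), 1.64 in the library labelled cKO (1.5 to 1.80), 0.589 in WT (0.539 to 0.644) and 0.131 in Old (0.125 to 0.137). For Cybb the values were 0.305 in Young, 0.371 in the library labelled cKO, 0.220 in WT and 0.0226 in Old. Neutrophil markers were higher in WT than in Young. Over that step the ratio was 0.866 (0.788 to 0.951) for Cyba and 1.68 (1.40 to 2.03) for Cybb. Monocyte and macrophage markers, of which Lyz2 held most reads, summed to 3334 RPM in Young, 2727 in Old, 3512 in WT and 2320 in the library labelled cKO, and Ccr2, Cd14 and Csf1r, 3 of the 7 with at least 100 reads, rose in Old over Young. Marco and Ms4a7 were not listed in either table. The 20 platelet and megakaryocyte markers had a median log2 ratio of 0.52 in Old over Young, with 17 ratios above 1. The part of neutrophils in the Cyba and Cybb ratios was not tested.

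Since Cyba and Cybb encode the partners of one membrane complex and were both higher in Old than in Young, the 250 bases before each RefSeq start site (build GRCm38.p6) are shown, minus strand, 5′ to 3′. Capitals mark matches to AGATAA or TGATAA on either strand, the letters of GATA-type sites, to which the megakaryocyte and red-cell factor GATA1 is known to bind. In Cyba the 2 matches overlap.
Cyba, chr8:122432941-122433190: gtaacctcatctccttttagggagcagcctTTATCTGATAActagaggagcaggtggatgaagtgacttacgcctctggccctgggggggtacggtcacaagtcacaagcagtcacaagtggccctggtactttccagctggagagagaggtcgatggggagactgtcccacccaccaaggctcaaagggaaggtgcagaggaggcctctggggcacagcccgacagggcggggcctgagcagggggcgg
Cybb, chrX:9469325-9469574: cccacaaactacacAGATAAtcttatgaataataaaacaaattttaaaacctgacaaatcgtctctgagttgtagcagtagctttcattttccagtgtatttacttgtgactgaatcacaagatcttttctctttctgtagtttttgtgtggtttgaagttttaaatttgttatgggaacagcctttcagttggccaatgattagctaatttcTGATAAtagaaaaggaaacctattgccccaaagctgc
The Cyba window is rich in G and C (60.0%) and the Cybb window is not (34.0%). Promoter windows were found for 9 of the 10 members, 12 windows in all. AGATAA was present in 2 of the 12 (Cyba and Cybb) and in 9.99% of all 32851 windows of that length, and TGATAA in 4 of the 12 (Cyba, Cybb and, at the same site, 2 overlapping windows of Gpx4) and in 7.94%. TGACNNNGC, the core of the antioxidant response element read by the factor NRF2, was present in 1 of the 12, that of Sod1, and in 10.2% of all windows. TGACTCA (AP-1) and GAGGAAGT (an ETS or PU.1 type site) were present in 0 of the 12, and in 4.46% and 2.44% of all windows. These are matches of letters, searched on both strands, and the data hold no measurement of binding.

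WT and Young, the libraries of 3-month-old wild-type mice, give a measure of how far pools labelled alike lay apart. Of 6373 genes 0.439% were higher and 0.565% lower past the rule, 1.00% in all, and 0 of 10 members passed. At 1.5-fold 1 of 10 did, against 5.32% of genes. Prdx2 came nearest, 1.94-fold lower in WT (1.76 to 2.14), followed by Cybb at 1.68, Prdx6 at 1.36 and Sod2 at 0.758 (0.632 to 0.907). For Prdx2 this fold was larger than that of the library labelled cKO over Young, 1.64. These comparisons share libraries with those above. Against Young, 0 of 10 members passed in the library labelled cKO, where 2.07% of 6428 genes rose and 0.793% fell, 2.86% in all. At 1.5-fold Gpx1 and Prdx2 did, against 10.5% of genes. All 10 ratios were at or above 1, from 1.01 for Sod2 to 1.70 for Cybb. Of all genes with at least 20 reads, 49.7% had a ratio above 1. The intervals of Sod2 (0.854 to 1.19) and Txn1 (0.886 to 1.17) held 1. With plain read totals, Sod2 and Txn1 lay on the other side of 1 there, within counting error, as did Cybb for the library labelled cKO over WT and Sod1 for WT over Young.

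Ratios between members within a library do not depend on the scaling of library sizes. The pairs, chosen after the values were seen, set related enzymes and the 2 oxidase subunits against each other per kilobase. Gpx1 over Gpx4 was 0.463 in Young (0.453 to 0.474), 0.215 in Old (0.209 to 0.221), 0.346 in WT (0.337 to 0.355) and 0.622 in the library labelled cKO (0.609 to 0.634). No intervals overlapped, and Old was the lowest. Prdx2 over Prdx6 was 0.0437 in Young, 0.0369 in Old, 0.0166 in WT and 0.0480 in the library labelled cKO, with WT apart from the rest. Cyba over Cybb was lowest in WT (13.1 to 17.2), at 24.8 in the library labelled cKO (21.8 to 28.2), 29.1 in Young (24.9 to 34.2) and 32.3 in Old (28.9 to 36.2), and the interval of Young overlapped that of Old and that of the library labelled cKO. Cat over Sod1 stayed between 17.7 in the library labelled cKO and 20.6 in WT.

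**Figure D4:**
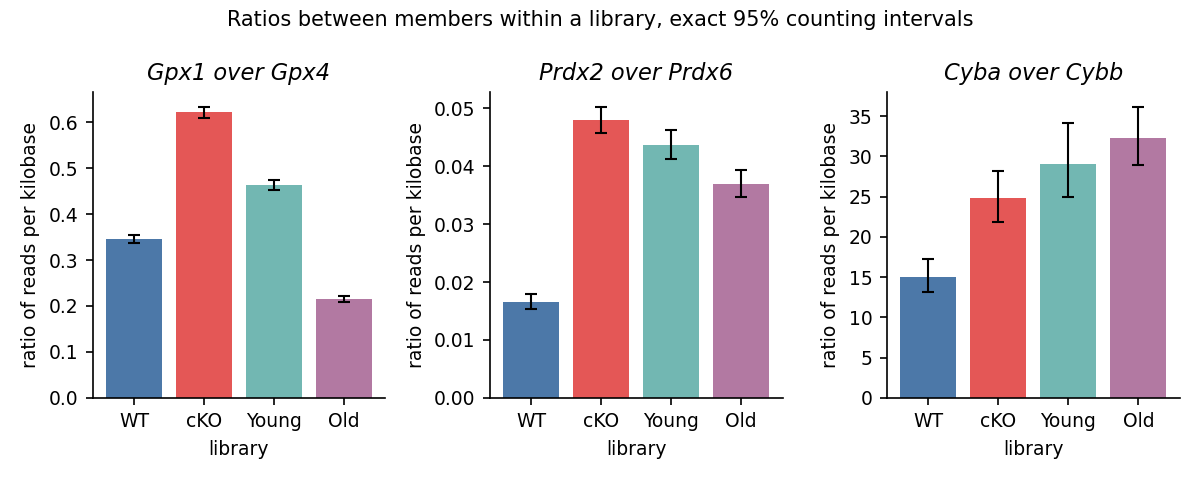
Ratio of reads per kilobase between 2 genes within each library, from 0, for Gpx1 over Gpx4, Prdx2 over Prdx6 and Cyba over Cybb, with exact 95% counting intervals, 1 library per bar. Gpx1 over Gpx4 is highest in the library labelled cKO (0.622) and lowest in Old (0.215), and the other pairs are lowest in WT.

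The other genes of redox metabolism were taken as 8 lists with 96 genes. In the library labelled cKO against WT, 53 had at least 100 reads, of which 2 rose and 0 fell, a share near the 4.22% of all genes that passed (2.52% rose and 1.71% fell). Gss, the glutathione synthase, rose 2.41-fold (2.13 to 2.74; 348 and 854 reads) and 2.77-fold over Young (2.44 to 3.15). Glrx5, a mitochondrial glutaredoxin of iron-sulphur cluster assembly, rose 2.71-fold (2.35 to 3.15; 252 and 696 reads) and stood at 1.51 of Young (1.35 to 1.70). The erythroid values given beside Prdx2 come from the same libraries, and their part in these ratios was not tested. The median log2 ratio of the 73 genes with at least 20 reads was 0.22, against -0.01 over all genes at that depth. Nfe2l2, which encodes NRF2, had 735 reads in Young, 1131 in Old, 870 in WT and 1511 in the library labelled cKO. It rose 2.25-fold over Young (2.06 to 2.47) but not over WT, at 1.71 (1.57 to 1.86). With plain read totals the ratio to Young was 2.11 (1.93 to 2.3) and no longer passed.

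In Old against Young, 52 of the 96 had at least 100 reads, of which 0 rose and 2 fell, where 4.26% of all genes rose and 4.30% fell. Sesn1, a stress-induced sestrin, fell 3.55-fold (2.86 to 4.44; 408 and 105 reads), and Bach2, a repressor with a known role in B cells, fell 4.87-fold (4.04 to 5.92; 699 and 131 reads). Against WT, Bach2 fell too, at 0.280 (0.229 to 0.340), while Sesn1 was at 0.518 (0.406 to 0.659) and did not pass. For Sesn1, WT itself was at 0.544 of Young (0.457 to 0.645). The 15 B cell markers summed to 666 RPM in Young and 274 in Old, and 9 of the 14 with at least 100 reads fell. The part of B cells in the Bach2 ratio was not tested. The median log2 ratio over 75 genes was 0.09, against -0.06 over all genes.

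The partners of the oxidase were on a list of their own. Of 14 listed, 8 were in the table of Old and Young and 6 had at least 100 reads, with 0 rising or falling. Cybc1, a chaperone of the membrane complex, came nearest, with 428 and 753 reads and a ratio of 1.93 (1.71 to 2.17). Of the cytosolic subunits, Ncf1 was at 0.978 (0.885 to 1.08) and Ncf4 at 1.2 (0.999 to 1.45). Rac1, the abundant small GTPase, had 38568 reads in Young and 33214 in Old, and Rac2, its blood-cell relative, was at 0.772 (0.733 to 0.813). In the library labelled cKO, Ncf4 was at 0.547 of WT (0.437 to 0.683; 127 and 228 reads) without passing. The other catalytic subunits had few or no reads. Nox1 had 4 reads in Young and 2 in Old, Nox4 had 2 in the library labelled cKO and 0 in WT, and Nox3, Duox1 and Duox2 were not listed in either table.

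The remaining lists held few calls. In the peroxiredoxin and thioredoxin list, 0 of 14 passed against WT, with Prdx1 at 0.487 (0.440 to 0.539; 568 and 1146 reads), and Sesn1 was the 1 of 14 that passed in Old. Of the NADPH-supplying enzymes, 0 of 9 passed in either comparison. G6pdx, the first enzyme of the pentose phosphate pathway, was at 1.48 of Young in Old (1.41 to 1.56) and Pgd, a later enzyme of the pathway, at 1.44 (1.37 to 1.51). Pgls, the enzyme between them, was on the other side of 1, at 0.635 (0.506 to 0.794; 219 and 127 reads), as was the malic enzyme Me2, at 0.593 (0.475 to 0.738). Of the 9 ratios, 5 were above 1. Nnt, the mitochondrial transhydrogenase that makes NADPH, was not listed in either table. The other glutathione peroxidases and transferases had 4 and 5 genes with at least 100 reads, of which 0 passed. Gpx3, the secreted glutathione peroxidase, had 20 reads in Young, 10 in Old, 6 in WT and 72 in the library labelled cKO, too few for the rule.

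**Figure D5:**
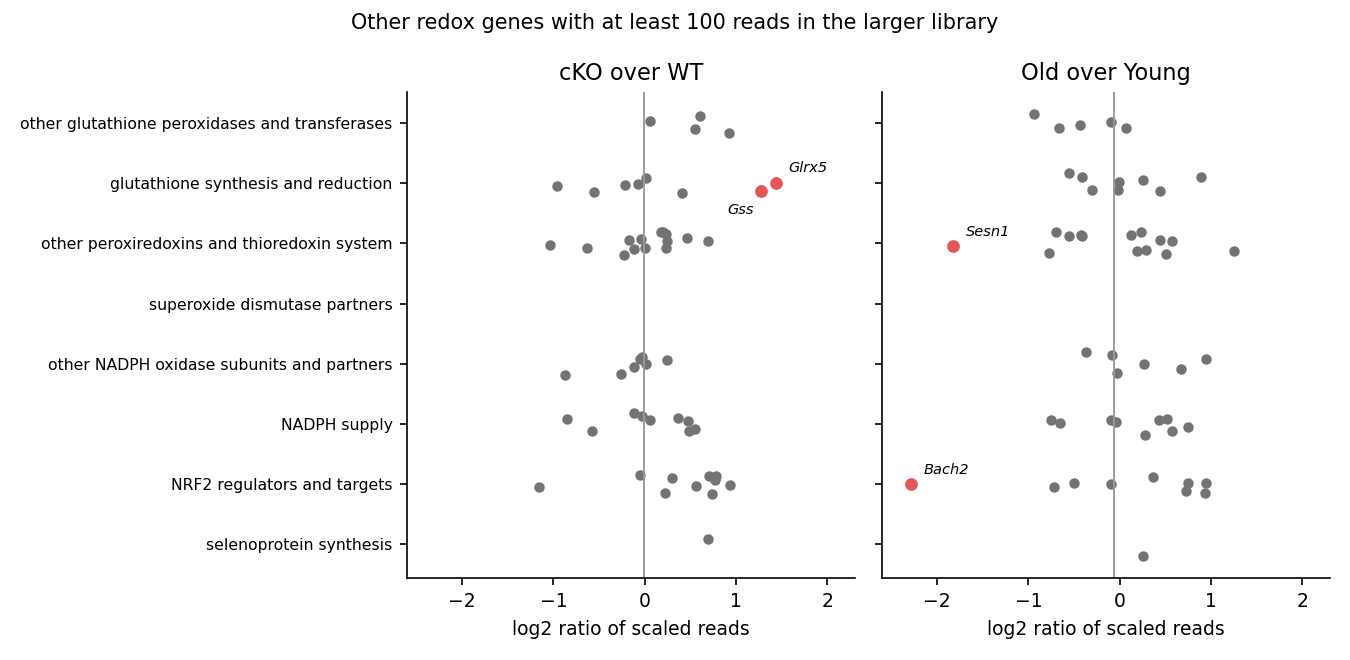
Log2 ratio of scaled reads for the genes of the 8 other redox lists that had at least 100 reads in the larger library, for the library labelled cKO over WT (left) and Old over Young (right), 1 point per gene with a vertical jitter. The line marks the median of all genes at that depth, and the genes in red passed the rule.

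Over the 4 libraries, genes most like a member were those with the smallest Euclidean distance between centred log2 levels, among the 1918 protein-coding genes with at least 500 reads in every library. With 4 points per gene this is a description. Prdx2 was nearest to Tent5c (distance 0.206), Map7d1 (0.209) and Fam213a (0.259), and Gpx1 to Pcbp1 (0.179), Cd24a (0.184) and Hist1h4c (0.192). Hist1h4c belongs to a family of near-identical genes. Cyba was nearest to Cavin1 (0.191), Bsg (0.253) and Afg3l2 (0.277). The less variable members had closer neighbours, such as Ing1 for Cat (0.0264), Ppp1r13b for Gpx4 (0.0343), Usp9x for Prdx6 (0.0467) and Atp5g2 for Sod1 (0.0684). Fth1, the ferritin heavy chain, was also near Sod1 (0.100).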

How the data were processed

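RNA of 4 pooled platelet libraries was sequenced. Per the submitters' processing notes, the tools were featureCounts 1.5.0-p3, HISAT2 2.0.5, DESeq2 1.20.0 and CASAVA, on mm10, with no role or order given. The sources used here do not say how strand and shared reads were treated. The authors deposited, per table, a signal for each gene and library (reads scaled to a common library size), a p-value with its adjusted form (per the file headers) and a log2 fold change. Each value above 0 equals whole reads times 1 step plus a constant; all came out whole within 0.02 read. Genes with fewer than 2 reads in a table are not listed. A further 4 per-sample columns matched no sample and were not used.

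The planned tests assumed counts, so recovered reads took their place. With 1 library per group no count test was run. TMM sizes (edgeR 4.0.16, R 4.3.3) were computed per pair, across the tables on the 14652 genes in both; levels used TMM over all 4 libraries. Intervals are Clopper-Pearson (scipy 1.17.1), and PCR copies are counted as reads, so they cover counting error only. The interval code was tested on simulated data. List medians use genes with at least 20 reads and a pseudocount of 0.5 read. Genes were named by rule: all members, list genes past the size rule (up to 4 per list and comparison), Elavl1, the summed markers with up to 3 leading ones, and up to 3 most alike genes. Named outside it, after their values were seen, were the oxidase partners, single blood cell markers, Nfe2l2, Prdx1, G6pdx, Pgd, Pgls, Me2, Nnt, Gpx3 and the overlapping genes and pseudogene. Members and lists were chosen with earlier results of these data known.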

Additional observations from a re-analysis of the deposited data

How the results depend on the processing

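No paired analysis was possible because each group is 1 library and the labels carry no replicate numbers. Of the 10 members, the number past the rule was 1, 1, 0, 0 and 1 for the library labelled cKO over WT, Old over Young, WT over Young, the library labelled cKO over Young and Old over WT. At a bound of 1.5-fold it was 2, 2, 1, 2 and 2, where 13.5%, 23.3%, 5.32%, 10.5% and 25.3% of genes passed. Those added were Gpx1, Cybb, Prdx2, then Gpx1 and Prdx2, then Prdx2. With plain read totals 0 passed in Old over Young, since all ratios there shifted by -0.16 on the log2 scale (-0.11 in WT over Young). Median-of-ratios size factors, TMM after a filter at 10 reads, a minimum of 20 reads, adding same-named copies and the deposited scaling left each member's call as it was. Among the other redox genes the number past the rule was 2, 2, 0, 2 and 1. It was 8, 9, 3, 4 and 10 at 1.5-fold. A minimum of 20 reads gave 3, 4, 0, 3 and 5, where 5.39%, 11.0%, 2.76%, 3.98% and 10.9% of all genes passed. Plain totals gave 1 in the library labelled cKO over Young, without Nfe2l2, and median-of-ratios factors or the filter gave 2 in Old over WT. Of the members, Sod2, Cybb and Txn1, with 192 to 503 reads a library, have the widest intervals.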
